A study of Caenorhabditis elegans with 9 samples.

Results

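The genes described here encode the classical heat shock and unfolded protein chaperones of *C. elegans*. They were chosen by name, with earlier results of these data known. They are the cytosolic *hsp-1*, *hsp-70*, *hsp-110*, *hsp-16.2*, *hsp-16.41* and *hsp-16.48*, the *hsp-3* and *hsp-4* of the endoplasmic reticulum (ER), and the mitochondrial *hsp-6* and *hsp-60*. These 10 symbols matched 11 of the 20541 gene identifiers in the files. The additional identifier arose because the symbol *hsp-16.48* stood for the neighbouring duplicates WBGene00002019 and WBGene00002020. RefSeq names the latter *hsp-16.49*, and it is called so here.

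Chaperones hold or refold proteins that have lost their shape. Proteins of the HSP70 family bind exposed stretches of a chain and release them in cycles of ATP hydrolysis, proteins of the HSP110 family exchange the nucleotide of HSP70, and the small HSP16 proteins hold unfolded chains without ATP. In worms, misfolding in the cytosol induces *hsp-70* and the *hsp-16* genes through the transcription factor HSF-1, misfolding in the ER induces *hsp-4* through IRE-1 and XBP-1, and misfolding in mitochondria induces *hsp-6* and *hsp-60* through ATFS-1. The *hsp-16.2*, *hsp-4*, *hsp-6* and *hsp-60* promoters are therefore widely used as reporters of these responses.

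RNA was sequenced from whole worms in 3 groups of 3 libraries. WT (N2) young adults were fed *E. coli* OP50 or were exposed to the pathogen *P. aeruginosa* PA14. The mutant group, *egl-44(mt2247)*, was kept on *E. coli* OP50. It is also described as young adult, but its stage was not tested. Some epidermis markers, given below, differed strongly between the mutant and WT worms on *E. coli* OP50. The log2 fold change was -8.52 for *col-19*, 4.48 for *dpy-7* and 3.31 for *rol-6*. *egl-44* encodes the worm TEAD transcription factor, and the mutant animals had been backcrossed into N2. All worms were grown at 20°C and then spent 24 h at 25°C on their bacteria, so each library, controls included, comes from worms that had been moved to a warmer temperature. No group on *E. coli* OP50 without this move, and no *egl-44* group on *P. aeruginosa* PA14, was analysed here. The *egl-44* libraries were registered as a block apart from the WT libraries, so genotype cannot be told apart from any difference between these sets. Separate cultures are not named for the replicates, so the p-values measure the spread between these libraries, which may be technical.

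The libraries held 13638251 to 17831389 reads counted in genes, as recovered from the steps between FPKM values (fragments per kilobase of transcript, scaled to the library total). A single read on 1 kb was worth 0.0561 to 0.0733 FPKM. *egl-44* mRNA stood at 16.108, 21.48 and 15.97 FPKM in WT worms on *E. coli* OP50 and at 32.55, 37.77 and 28.21 FPKM in the mutant, so its level does not check the allele. A higher level was not particular to the mutant. WT worms on *P. aeruginosa* PA14 had 30.4, 37.5 and 32.9 FPKM (log2 fold change 0.90 ± 0.19, limma, unadjusted p of 0.00260, adjusted p = 0.109). The correlation of log2 values between replicates was 0.937 to 0.984 for *E. coli* OP50, 0.933 to 0.973 for *egl-44* and 0.964 between PA14 replicates 1 and 3. PA14 replicate 2 stood apart, at 0.927 and 0.870 with these, and the PA14 fold changes of the chaperone genes are given with and without it. The *egl-44* worms held much less germline RNA: all 9 oocyte and germline markers and all 8 sperm markers fell. The log2 fold changes were -6.01 to -2.30 for the former and -7.28 to -2.63 for the latter. The summed level of the former was 42.7 to 152 FPKM against 1058 to 1943 FPKM in WT worms on *E. coli* OP50, and that of the latter 2.15 to 49.4 FPKM against 763 to 811 FPKM, with no marker at 0 in every library. In whole worms, fewer cells of a type and less RNA per cell cannot be told apart. The part of the lower germline RNA, or of any difference in stage, in each *egl-44* value below was not tested.

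None of the 10 chaperone identifiers that passed the filter on low values was called after exposure to *P. aeruginosa* PA14, at an unadjusted p under 0.05 with a fold change over 2 or at an adjusted p under 0.05. Of all 15760 genes tested, 8.78% were called by the first rule and 0.857% by the second. At an unadjusted p under 0.05 alone, 1 identifier passed, *hsp-60*, where at least the 8.78% of all genes called by the first rule did. In *egl-44* worms, no chaperone identifier passed the first rule, which called 41.4% of 15488 genes. By the second rule *hsp-3* rose and *hsp-1* fell, 2 of 10 identifiers where 57.8% of all genes were called. At an unadjusted p under 0.05 alone 4 of 10 passed, where at least these 57.8% of all genes did. Both comparisons used the same *E. coli* OP50 libraries. Only the *hsp-16.48* identifier WBGene00002019 did not reach a mean of 0.5 FPKM in either comparison.

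**Figure D1:**
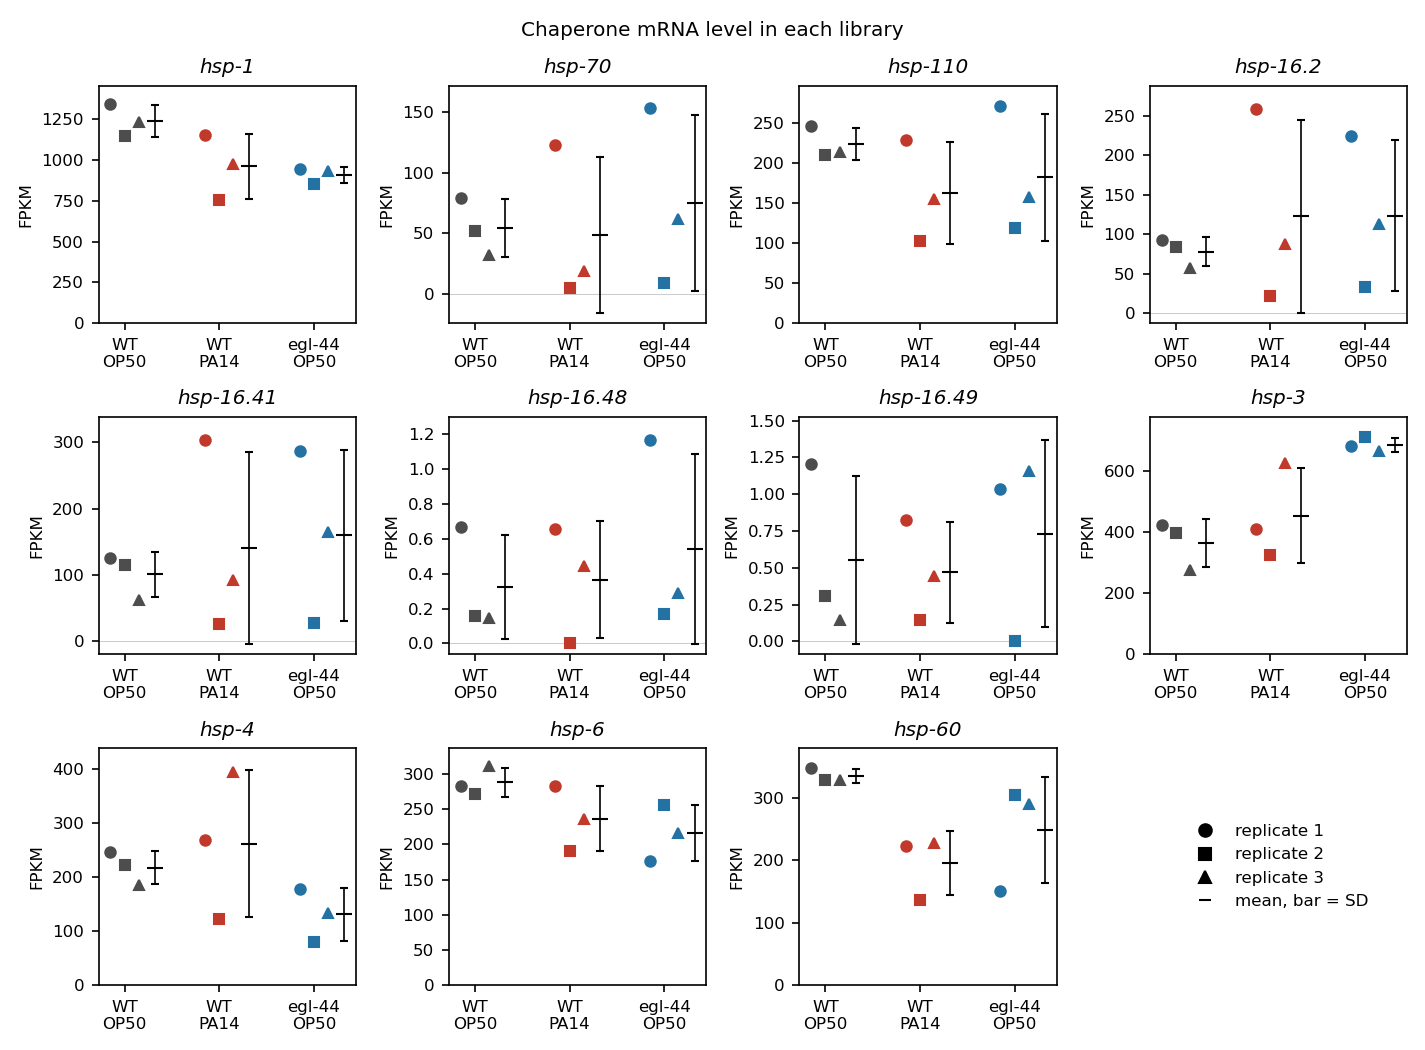
FPKM of each chaperone gene (vertical axis, linear, drawn from 0 or from just below it where a point or an SD bar comes close to 0) in the 9 libraries, with the groups on the horizontal axis, a symbol for each replicate, and the mean with its SD (n = 3) to the right of each group. *hsp-3* was higher and *hsp-1* lower in all 3 *egl-44* libraries than in any WT library on *E. coli* OP50, while *hsp-70*, *hsp-16.2* and *hsp-16.41* had PA14 and *egl-44* libraries both above and below the OP50 libraries.

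*hsp-1* (chromosome IV, 17278959 to 17281330, plus strand, WBcel235) encodes the constitutive cytosolic HSP70 that assists new proteins in unstressed cells. It had the highest mean level of the 11 identifiers in each group. Its mRNA stood at 1342, 1147 and 1234 FPKM in WT worms on *E. coli* OP50 and at 1155, 755 and 975 FPKM on *P. aeruginosa* PA14. These groups overlapped by 1 library, PA14 replicate 1, and the log2 fold change was -0.39 ± 0.17 (SE; limma adjusted p = 0.258), or -0.22 without PA14 replicate 2. In *egl-44* worms it was 945, 853 and 933 FPKM, below every WT library on *E. coli* OP50. The fall was -0.45 ± 0.11 on the log2 scale (limma adjusted p = 0.0149), and it was -0.39 with an adjusted p of 0.0585 without OP50 replicate 1. Its usual partner in the cytosol, *hsp-90* (also called *daf-21*), fell as well, from 971 ± 60.9 FPKM to 618 ± 68.9 FPKM (SD, n = 3; log2 fold change -0.65 ± 0.13, limma adjusted p = 0.00563).

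*hsp-110* (III, 8443910 to 8446909, minus strand), the nucleotide exchange factor of HSP70, stood at 246.7, 210.8 and 214 FPKM in WT worms on *E. coli* OP50. It stood at 229.7, 103 and 156 FPKM on *P. aeruginosa* PA14 and at 271.5, 118.7 and 157.6 FPKM in *egl-44* worms. In both groups replicate 1 was within or above the OP50 range and the other libraries lay below it. The log2 fold changes of -0.53 ± 0.28 and -0.38 ± 0.29 did not pass either rule (limma adjusted p = 0.295 and 0.290). The first was -0.24 without PA14 replicate 2. Without *egl-44* replicate 1 the *egl-44* value was -0.71 with an adjusted p of 0.0283, and without *egl-44* replicate 2 it was -0.11.

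*hsp-70* (I, 9320325 to 9322519, minus strand) encodes the HSP70 that is made on heat stress. Its mRNA was detected in every library, at 79.6, 51.8 and 32.6 FPKM in WT worms on *E. coli* OP50. On *P. aeruginosa* PA14 the values were 122, 4.87 and 19.3 FPKM, and in *egl-44* worms 153, 9.65 and 62.2 FPKM. PA14 replicate 1 and *egl-44* replicate 1 were higher than any OP50 library and the replicates numbered 2 of the same groups were lower than any, so both groups overlapped the OP50 group. The highest PA14 library held 25.1 times the level of the lowest. The log2 fold changes were -1.13 (95% interval -3.67 to 1.40) for *P. aeruginosa* PA14 and -0.17 (-2.39 to 2.06) for *egl-44*, so neither direction is set at this spread. The first was -0.07 without PA14 replicate 2, and without PA14 replicate 1 it was -2.33 with an unadjusted p of 0.0128. Without *egl-44* replicate 2 the second turned to 0.92.

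*hsp-16.2* (V, 1804334 to 1804957, minus strand) and *hsp-16.41* (V, 1805178 to 1805875, plus strand) encode small HSPs and are transcribed away from each other, with 220 bases between them. *hsp-16.2* stood at 92.7, 84.2 and 57.1 FPKM in WT worms on *E. coli* OP50, at 258, 21.7 and 88.4 FPKM on *P. aeruginosa* PA14, and at 224, 33.9 and 113 FPKM in *egl-44* worms. *hsp-16.41* stood at 126, 116 and 62.1 FPKM, at 304, 26.6 and 92.8 FPKM, and at 287, 28.1 and 165 FPKM in the same order. Replicate 1 was the highest library of both genes in every group. Replicate 2 was the lowest on *P. aeruginosa* PA14 and in *egl-44* worms, while OP50 replicate 3 was the lowest of its own group. The level of *hsp-16.41* over that of *hsp-16.2* stayed between 0.827 and 1.45 in all 9 libraries while *hsp-16.2* itself ranged from 21.7 to 258 FPKM.

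Neither small HSP gene passed a rule. For *hsp-16.2* the log2 fold change was 0.06 (95% interval -1.90 to 2.01) on *P. aeruginosa* PA14 and 0.32 (-1.20 to 1.83) in *egl-44* worms. For *hsp-16.41* it was -0.09 (-2.06 to 1.89) and 0.19 (-1.75 to 2.12). These are differences of mean log2 values. The mean FPKM of *hsp-16.41* on *P. aeruginosa* PA14 was 1.39-fold that on *E. coli* OP50, and the mean FPKM of *hsp-70* in *egl-44* worms was 1.37-fold that of WT worms, so for these genes the sign depends on the scale. Single libraries set these directions. Without PA14 replicate 2 the PA14 values were 0.98 and 0.79, and without PA14 replicate 1 they were -0.79 and -0.95. Without *egl-44* replicate 2 the *egl-44* values were 1.05 and 1.16 at unadjusted p-values of 0.0256 and 0.0249, past the first rule, and without *egl-44* replicate 1 they were -0.30 and -0.50.

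*hsp-16.48* (V, 9088131 to 9088617, plus strand) and *hsp-16.49* (V, 9089280 to 9089766, minus strand) lie 662 bases apart between the related copies *hsp-16.1* (V, 9087293 to 9087782) and *hsp-16.11* (V, 9090077 to 9090604). *hsp-16.48* had at most 9 reads in any library, which is 1.17 FPKM, and was at 0 in PA14 replicate 2. *hsp-16.49* also had at most 9 reads and was at 0 in *egl-44* replicate 2. Its log2 fold changes of -0.05 ± 0.48 and 0.17 ± 0.57 (limma adjusted p = 0.949 and 0.804) rest on these few reads, and the first was 0.21 without PA14 replicate 2. *hsp-16.11*, from the same cluster, stood at 89.7 to 150 FPKM on *E. coli* OP50, 36.8 to 354 FPKM on *P. aeruginosa* PA14 and 50.5 to 410 FPKM in *egl-44* worms, while *hsp-16.1* stayed at or below 13.6 FPKM. *hsp-16.48* and *hsp-16.49* share a symbol as duplicates, and so do *hsp-16.1* and *hsp-16.11*. No source used here says how reads that match more than 1 copy were counted, so the single levels within each pair are uncertain.

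**Figure D2:**
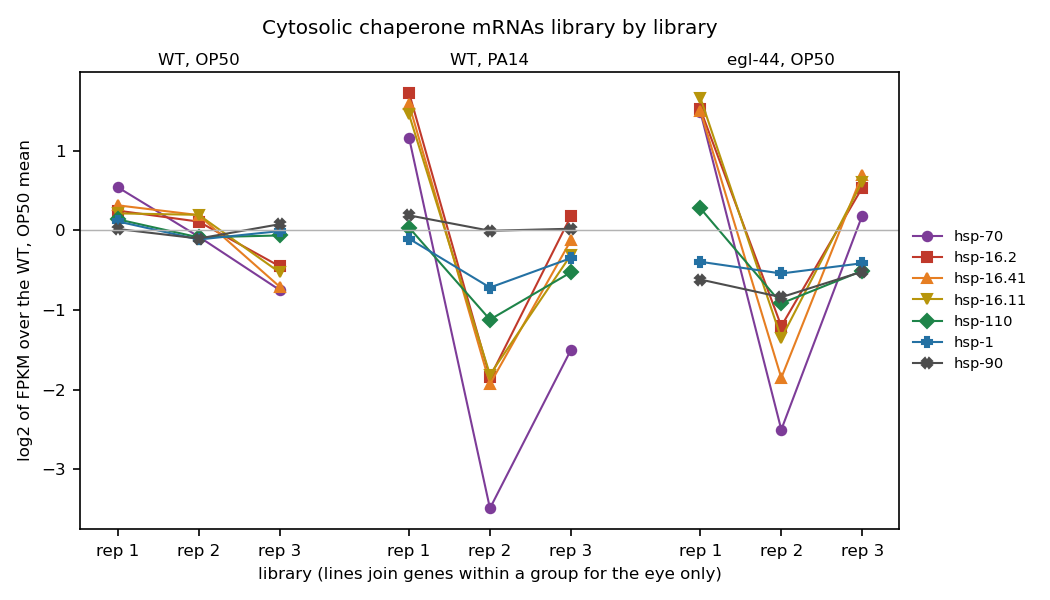
Level of 7 cytosolic chaperone mRNAs in each of the 9 libraries (horizontal axis), as the log2 of FPKM over the mean of the WT libraries on *E. coli* OP50 (vertical axis), with lines that only join the points of a gene within a group. *hsp-70*, *hsp-16.2*, *hsp-16.41* and *hsp-16.11* moved together from library to library within each group and *hsp-110* less far, while *hsp-1* and *hsp-90* stayed within a narrow band in each group.

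The inducible cytosolic genes were thus among the more variable mRNAs between replicates. Over the 11045 genes whose mean reached 5 FPKM, the median SD within groups was 0.327 on the log2 scale. It was 1.78 for *hsp-70*, and 0.706% of the genes had an SD at least as large. The SD was 1.46 for *hsp-16.41* (2.001% of genes), 1.31 for *hsp-16.2* (3.08%) and 1.31 for *hsp-16.11* (3.12%). The constitutive genes lay at the other end, with 0.195 for *hsp-1* (81.6% of genes) and 0.124 for *hsp-90* (95.3%). Among the same 11045 genes, the 3 whose levels over the 9 libraries were most like those of *hsp-16.2* were *hsp-16.11* (Pearson r = 0.985), *hsp-16.41* (0.984) and *hsp-70* (0.935). The libraries share their groups and the copies may share reads, so these values are a description.

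*hsp-3* (X, 6089028 to 6092124, minus strand) and *hsp-4* (II, 7350112 to 7352645, minus strand) both encode BiP, the HSP70 of the ER lumen. *hsp-3* stood at 423, 396 and 275 FPKM in WT worms on *E. coli* OP50 and at 680, 711 and 665 FPKM in *egl-44* worms. The lowest *egl-44* library lay well above the highest OP50 library. The rise was 0.93 ± 0.18 on the log2 scale (limma adjusted p = 0.00535), or 1.88-fold between the means. In 14 of 14 alternatives it was 0.74 to 1.05, with adjusted p-values of 0.00313 to 0.0211.

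*hsp-4*, the BiP gene that ER stress induces, took the other direction in the same libraries. It stood at 245.6, 221 and 184 FPKM in WT worms on *E. coli* OP50 and at 178, 80.2 and 134 FPKM in *egl-44* worms. The groups did not overlap, but the gap between *egl-44* replicate 1 and OP50 replicate 3 was narrow. The log2 fold change was -0.79 ± 0.29 (limma, unadjusted p of 0.0305, adjusted p = 0.0521), just outside the second rule. It was -1.05 (adjusted p = 0.0273) without *egl-44* replicate 1 and -0.48 (adjusted p = 0.0923) without *egl-44* replicate 2.

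As a result, the level of *hsp-3* over that of *hsp-4* was 1.72, 1.79 and 1.49 in the OP50 libraries and 3.82, 8.86 and 4.97 in the *egl-44* libraries. Every *egl-44* library lay above every OP50 library (two-sided exact permutation p = 0.1, the smallest that 3 against 3 allows). The summed BiP level was 582 ± 109 FPKM in WT worms and 816 ± 36.7 FPKM in *egl-44* worms on *E. coli* OP50 (SD, n = 3), again without overlap and with an exact p of 0.1.

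On *P. aeruginosa* PA14 both BiP genes overlapped their OP50 levels. *hsp-3* stood at 409, 324 and 627 FPKM and *hsp-4* at 267, 123 and 394 FPKM, with replicate 3 highest and replicate 2 lowest for both. Their order over the libraries was also shared on *E. coli* OP50. The ratio of *hsp-3* to *hsp-4* was 1.53, 2.64 and 1.59, and it overlapped the OP50 ratios (exact p = 0.8). Neither gene passed a rule: the log2 fold change was 0.28 ± 0.28 for *hsp-3* (limma adjusted p = 0.513) and 0.12 ± 0.41 for *hsp-4* (adjusted p = 0.849). Without PA14 replicate 2 they were 0.50 and 0.59, and the latter had an unadjusted p of 0.0353. Without PA14 replicate 3 they were 0.02 and -0.25.

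**Figure D3:**
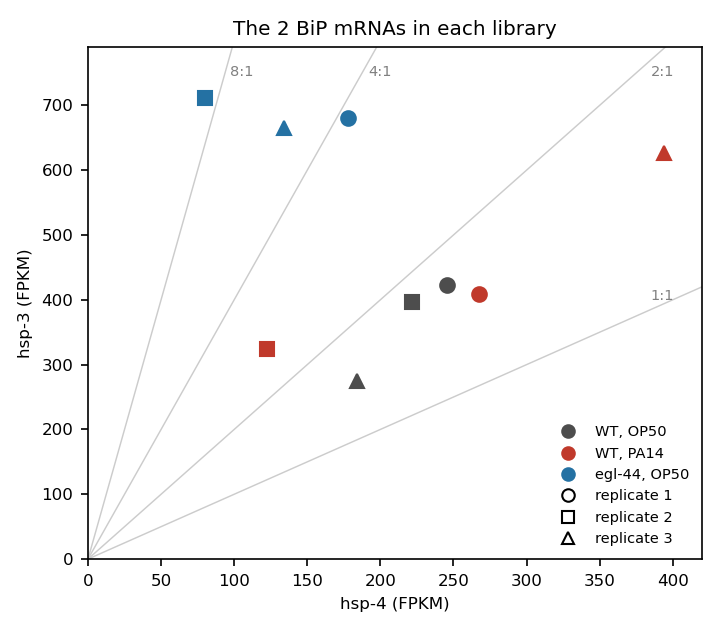
Level of *hsp-3* (vertical axis, FPKM) against that of *hsp-4* (horizontal axis, FPKM) in the 9 libraries, with grey lines of equal ratio. The *egl-44* libraries lie at ratios of 3.82 to 8.86 and the WT libraries on either bacterium at 1.49 to 2.64.

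*hsp-6* (V, 4824124 to 4826760, minus strand) encodes the mitochondrial HSP70, and *hsp-60* (III, 1619742 to 1625803, plus strand) the chaperonin that folds proteins in the mitochondrial matrix. *hsp-60* stood at 348, 328 and 329 FPKM in WT worms on *E. coli* OP50 and at 223, 137 and 228 FPKM on *P. aeruginosa* PA14. The groups did not overlap, and *hsp-60* was the only 1 of the 10 identifiers tested of which this held, where 30.2% of all genes tested had groups without overlap. The log2 fold change was -0.81 ± 0.21 (limma, unadjusted p of 0.00707, adjusted p = 0.159), so it passed neither rule. In 14 of 14 alternatives it stayed between -1.06 and -0.57 with an unadjusted p under 0.05, and with median-of-ratios scaling, at -1.06, it passed the first rule. It was -0.57 (adjusted p = 0.0806) without PA14 replicate 2.

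*hsp-6* stood at 283, 271 and 311 FPKM on *E. coli* OP50 and at 283, 191 and 237 FPKM on *P. aeruginosa* PA14, so PA14 replicate 1 reached the OP50 level. The log2 fold change was -0.30 ± 0.17 (limma adjusted p = 0.305), or -0.15 without PA14 replicate 2. The level of *hsp-6* over that of *hsp-60* was 0.861 ± 0.0741 on *E. coli* OP50 and 1.23 ± 0.181 on *P. aeruginosa* PA14 (SD, n = 3), and these ratios did not overlap (exact p = 0.1).

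In *egl-44* worms *hsp-6* stood at 176, 256 and 217 FPKM and *hsp-60* at 151, 305 and 290.0 FPKM. All of these lay below the OP50 libraries, and *egl-44* replicate 1 was the lowest of its group for both genes. The log2 fold change was -0.43 ± 0.16 for *hsp-6* (limma, unadjusted p of 0.0337, adjusted p = 0.0564) and -0.50 ± 0.27 for *hsp-60* (adjusted p = 0.148). Without *egl-44* replicate 1 they were -0.29 and -0.17, and without *egl-44* replicate 2 *hsp-6* reached -0.56 with an adjusted p of 0.0311. The ratio of *hsp-6* to *hsp-60* was 0.918 ± 0.222 and overlapped that on *E. coli* OP50 in WT worms (exact p = 0.8). In all, the *egl-44* and WT groups did not overlap for 5 of 10 identifiers, namely *hsp-1*, *hsp-3*, *hsp-4*, *hsp-6* and *hsp-60*, against 69.6% of all genes tested.

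**Figure D4:**
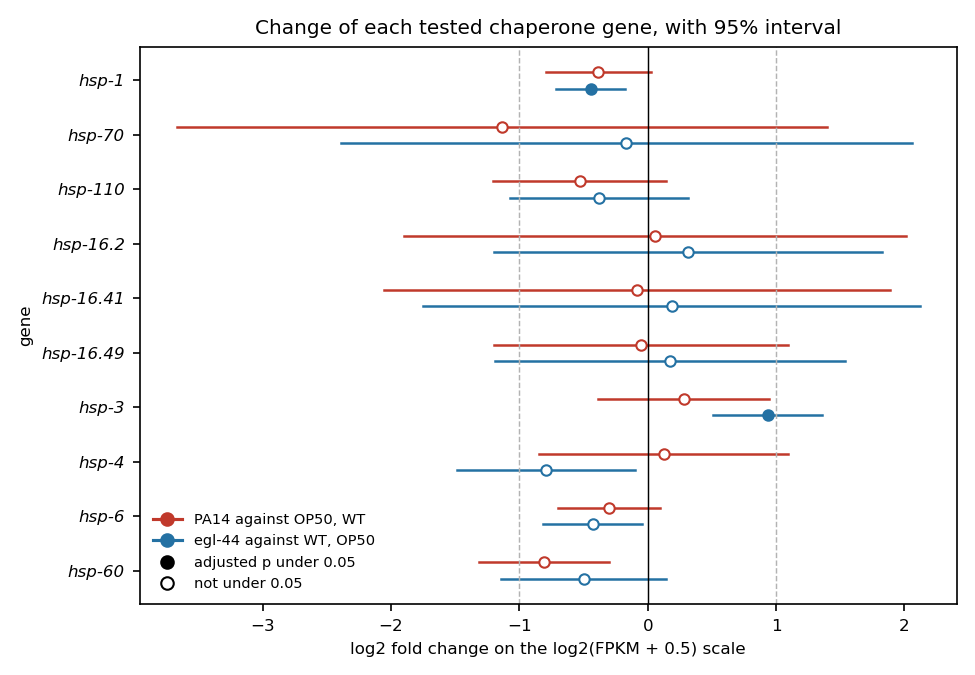
Log2 fold change on the log2(FPKM + 0.5) scale (horizontal axis) of each chaperone gene tested, with its 95% interval from limma, for WT worms on *P. aeruginosa* PA14 (red) and for *egl-44* worms (blue), each against the WT libraries on *E. coli* OP50. Filled points mark an adjusted p under 0.05, reached by *hsp-1* and *hsp-3* in *egl-44* worms, and dashed lines mark a fold change of 2.

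The identifiers tested did not all lie in 1 direction in either comparison, and single libraries moved the counts. On *P. aeruginosa* PA14, 3 of the 10 identifiers tested were higher and 7 lower, with a median log2 fold change of -0.19 beside 0.25 over all genes tested. Without PA14 replicate 2, 5 were higher and 5 lower, with a median of 0.07. Without PA14 replicate 1, 2 were higher and 7 lower of the 9 tested (median -0.79), and without PA14 replicate 3, 1 was higher and 9 lower (median -0.28). In *egl-44* worms, 4 were higher and 6 lower, with a median of -0.27 beside 0.12 over all genes tested. Without *egl-44* replicate 2, 5 were higher and 5 lower and the median turned to 0.31, and without *egl-44* replicate 1, 1 was higher and 9 lower (median -0.39). The median over all genes moved to 0.01 in both comparisons with median-of-ratios scaling, where 1 of the 10 was higher on *P. aeruginosa* PA14 (median -0.45) and 4 of the 10 in *egl-44* worms (median -0.39).

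The wider folding machinery was read from lists of 24 other cytosolic heat shock genes, the 8 subunits of the CCT chaperonin, 22 genes of the ER and 17 of mitochondria. After exposure to *P. aeruginosa* PA14, 4 of these 71 genes (5.63%) passed the first rule, against 8.78% of all genes tested, and none passed the second, against 0.857%. *atf-6*, an ER stress sensor, rose from 3.84, 4.32 and 4.15 FPKM to 7.50, 15.4 and 8.53 FPKM, a log2 fold change of 1.19 ± 0.31 (limma, unadjusted p of 0.00748, adjusted p = 0.161). It was 0.89 without PA14 replicate 2. *hsp-17*, a small HSP gene, stood at 42.3 to 46.2 FPKM on *E. coli* OP50 and at 126, 42.7 and 146 FPKM on *P. aeruginosa* PA14 (log2 fold change 1.07, limma, unadjusted p of 0.0495), and 9 of 14 alternatives ended its call. Without PA14 replicate 2, the PA14 library at the OP50 level, it was 1.62 with an adjusted p of 0.0173, past the second rule. The small HSP genes *F08H9.3* (1.29) and *F08H9.4* (-1.07) were below 4 FPKM in these 6 libraries, and 8 of 13 alternatives ended the call of each. Without PA14 replicate 2 they were 1.01 (unadjusted p of 0.0941) and -1.24 (0.0468). *xbp-1*, the factor that induces *hsp-4*, had a log2 fold change of 0.63 ± 0.15 (limma, unadjusted p of 0.00420, adjusted p = 0.133; 0.63 also without PA14 replicate 2), short of a fold change of 2.

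In *egl-44* worms 9 of the 22 genes of the ER list rose and 4 fell by the second rule, in all 59.1% against 57.8% of all genes tested. By the first rule 4 rose and none fell, 18.2% against 41.4%. *pdi-2*, a protein disulfide isomerase, rose from 905, 592 and 391 FPKM to 1728, 1455 and 1990 FPKM, a log2 fold change of 1.53 ± 0.30 (limma adjusted p = 0.00610). *dnj-27*, an ER protein with DnaJ and thioredoxin domains, rose from 14.8, 9.97 and 7.05 FPKM to 40.3, 28.6 and 51.6 FPKM (1.89 ± 0.33, limma adjusted p = 0.00379). *atf-6* rose to 12.58, 14.37 and 9.74 FPKM (1.45 ± 0.23, adjusted p = 0.00262), and the last of the 4 was *pdi-6*, another disulfide isomerase (1.34).

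The sensor genes of the ER response, and the factor gene *xbp-1*, did not move as 1 group in the mutant. The kinase gene *ire-1* fell by 0.58 on the log2 scale (limma adjusted p = 0.0291), while *atf-6* rose by 1.45, as above. *xbp-1* stood 0.38 higher (limma adjusted p = 0.0552) and *pek-1* 0.29 higher (adjusted p = 0.401), and neither passed the second rule. The genes that fell by the second rule were *ire-1*, *cdc-48.1* (-0.66), *cdc-48.2* (-0.62) and *sel-11* (-0.47). The lumenal chaperone genes *enpl-1* (GRP94, 0.72) and *crt-1* (calreticulin, 0.78) rose by this rule, as *hsp-3* did. On *P. aeruginosa* PA14 these 2 were also higher, by 0.74 and 0.52 (limma adjusted p = 0.150 and 0.249). Without PA14 replicate 2 their means were 329 and 1342 FPKM, against 188 and 922 FPKM on *E. coli* OP50. The median of the ER list was 0.15, close to the 0.12 over all genes tested.

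Among the 24 cytosolic genes 5 rose and 4 fell in *egl-44* worms by the second rule, in all 37.5% against 57.8% of all genes tested. *sip-1*, a small HSP gene, fell from 874, 797 and 1895 FPKM to 157, 27.6 and 274 FPKM (log2 fold change -3.36 ± 0.82, limma adjusted p = 0.0132). It moved with the oocyte and germline markers, whose median log2 fold change was -4.79, and the part of the lower germline RNA in it was not tested. *hsf-1*, the transcription factor gene of the heat shock response, fell by 0.93 (limma adjusted p = 0.00753), with the inducible *hsp-70* and *hsp-16* genes uncalled as above. The small HSP gene *hsp-12.1* rose by 1.11 (limma adjusted p = 0.00857). *F08H9.3* had a log2 fold change of 1.51 (adjusted p = 0.0365), which passed the first rule but not without OP50 replicate 1, OP50 replicate 2 or *egl-44* replicate 1 (unadjusted p of 0.0557, 0.0682 and 0.0547).

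**Figure D5:**
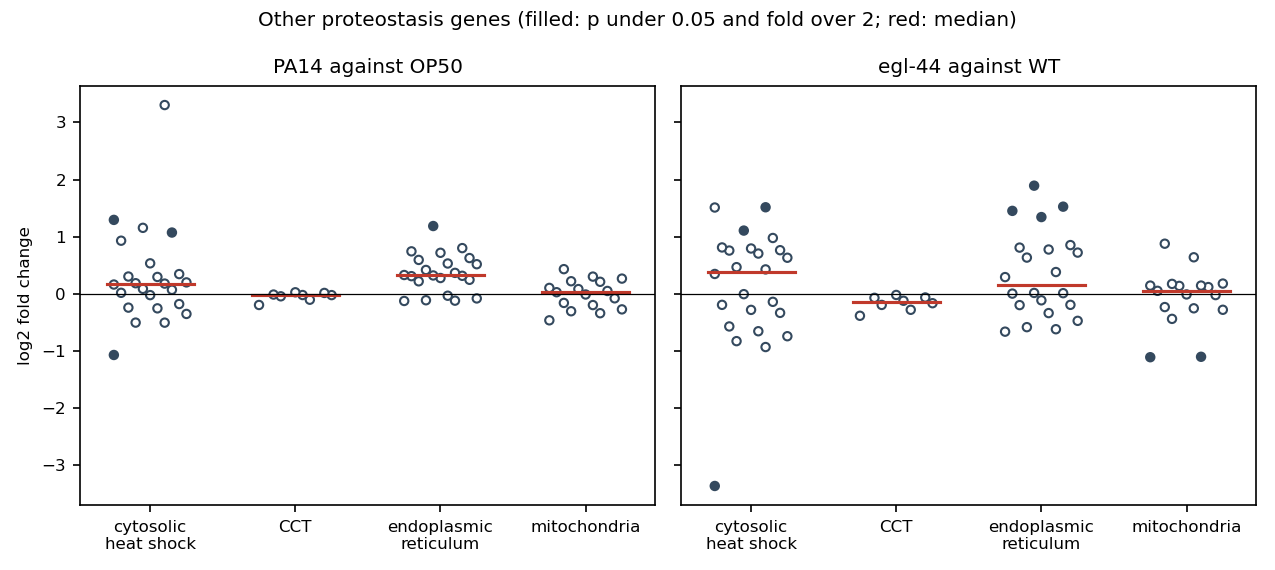
Log2 fold change (vertical axis) of each gene of the 4 lists (horizontal axis) in both comparisons, with 1 point per gene, filled where the unadjusted p was under 0.05 and the fold change over 2, and a red bar at the median. Filled points above 0 are most frequent in the ER list of the *egl-44* comparison, and the cytosolic list has the lowest value there, *sip-1* at -3.36.

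CCT, which folds actin and tubulin in the cytosol, changed least, with log2 fold changes of -0.20 to 0.03 on *P. aeruginosa* PA14 and of -0.38 to -0.02 in *egl-44* worms. In the latter 1 of 8 subunits (12.5%) fell by the second rule, against 57.8% of all genes tested. In the mitochondrial list no gene was called on *P. aeruginosa* PA14, where 8.78% of all genes tested passed the first rule and 0.857% the second. Of its 17 genes 3 (17.6%) passed the second rule in *egl-44* worms, against 57.8% of all genes tested, and 2 (11.8%) the first, against 41.4%. In *egl-44* worms *met-2*, a histone methyltransferase gene, fell by 1.11 (limma adjusted p = 0.00267) and *lin-65*, its partner in the chromatin state of the mitochondrial stress response, fell by 1.10 (adjusted p = 0.00376). *dve-1*, a homeodomain factor of the same response, rose by 0.88 (adjusted p = 0.0231). *atfs-1*, the transcription factor of that response, had a log2 fold change of -0.02 in the mutant (adjusted p = 0.969) and of 0.30 on *P. aeruginosa* PA14 (adjusted p = 0.388), or 0.32 without PA14 replicate 2.

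Markers of the other tissues are given beside these values. In *egl-44* worms the summed level was 6320 to 8263 FPKM for 8 intestine markers against 4339 to 5922 FPKM in WT worms, 7713 to 8693 against 5134 to 5902 FPKM for 7 body muscle markers, and 359 to 496 against 257 to 292 FPKM for 7 neuron markers. On *P. aeruginosa* PA14 these sums were 3355 to 5463, 2615 to 4672 and 327 to 405 FPKM, and PA14 replicate 2 had the lowest intestine and muscle sums. The summed level of 6 epidermis markers was 2363 to 2960 FPKM in WT worms on *E. coli* OP50, 843 FPKM in PA14 replicate 2, 2327 and 2455 FPKM in the other PA14 libraries and 2500 to 4446 FPKM in *egl-44* worms. These 6 markers did not move together in *egl-44* worms. *col-19* stood at 3.64, 4.47 and 5.54 FPKM against 1475 to 2221 FPKM in WT worms on *E. coli* OP50 (log2 fold change -8.52, limma adjusted p = 1.97e-05). *dpy-7* rose by 4.48 (limma adjusted p = 0.00373) and *rol-6* by 3.31 (adjusted p = 0.0182). *dpy-5* stood 2.34 higher, *lin-26* 0.24 higher and *bli-1* 1.22 lower, none past the second rule. The part of stage in these values was not tested. The summed level of 8 embryo markers was 60.7 to 81.4 FPKM in WT worms on *E. coli* OP50, 86.1 to 116 FPKM on *P. aeruginosa* PA14 and 53.2 to 98.9 FPKM in *egl-44* worms. Of these 8, 1 was at 0 in all OP50 libraries and 2 in all *egl-44* libraries. Most of the sum was *skn-1*, at 50.3 to 72.7, 73.6 to 90.5 and 40.6 to 73.9 FPKM in the same order. Among the PA14 libraries every other embryo marker was highest in replicate 2, such as *pes-10* (0.836, 6.03 and 0 FPKM) and *elt-1* (7.41, 17.6 and 7.82 FPKM). On *P. aeruginosa* PA14 the sperm markers summed to 280 to 757 FPKM, below every OP50 library, and the oocyte and germline markers to 1420 to 2096 FPKM, which overlapped the OP50 sums. The part of these shares of tissue RNA in the chaperone values was not tested.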

How the data were processed

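RNA of whole worms was measured in 9 libraries. The authors deposited 1 file of FPKM per library. The submitters' processing notes name WBcel235, Bowtie2 2.2.3, TopHat2 2.0.12, HTSeq 0.6.1 and DESeq 1.18.0. The sources used here give neither the strand use nor the treatment of reads that match several genes. Symbols were found for 19587 of 20541 identifiers. Reads were recovered from FPKM and WBcel235 exon lengths. Of 19422 genes above 0 with a model, 99.5% had whole reads (tolerance 0.01). Precision from reads covers counting error only, and a value of 0 allows up to 3 reads.

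Each comparison was fitted on its 6 libraries with limma 3.58.1 in R 4.3.3 (lmFit, eBayes with trend) on log2(FPKM + 0.5), leaving out genes whose mean was under 0.5 FPKM. Fold changes are on this scale, which understates those of low genes. Calls used the study's limits (a fold change over 2 at an unadjusted p under 0.05) or a Benjamini-Hochberg adjusted p under 0.05 over all genes tested. Exact permutation tests were two-sided. Sums, ratios and figures used Python 3.11.15, pandas 2.3.3, numpy 2.4.6, scipy 1.17.1 and matplotlib 3.10.9. The fit was tested on simulated data.

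The members and gene lists were chosen with earlier results of these data known. By rule the text names all members and *egl-44*, up to 3 genes with the largest change in each direction of each list past the study's limits, and the 3 genes most like *hsp-1*, *hsp-4*, *hsp-6* and *hsp-16.2*. Other genes (*hsp-90*, *hsp-16.1*, *hsp-16.11*, *hsf-1*, *ire-1*, *xbp-1*, *pek-1*, *enpl-1*, *crt-1*, *pdi-6*, *cdc-48.1*, *cdc-48.2*, *sel-11*, *dve-1*, *atfs-1*, *col-19*, *dpy-7*, *rol-6*, *dpy-5*, *lin-26*, *bli-1*, *skn-1*, *pes-10*, *elt-1*) were named after their values were seen. *hsp-16.49*, listed with the cytosolic genes at first, was counted as a member. Alternatives were quantile normalization, median-of-ratios scaling, pseudocounts of 0.1 and 1 FPKM, a minimum mean of 5 FPKM or none, 1 fit of all 9 libraries, a replicate block, and leaving out each library. No promoter or protein sequences were used here.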

Additional observations from a re-analysis of the deposited data

How the results depend on the processing

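Of the 276 fold changes of chaperone identifiers refitted under the alternatives, 247 kept their direction and their side of an adjusted p of 0.05, 21 turned, 7 came past it and 1 lost it. By the study's limits, which none passed at first, 7 passed under an alternative. On *P. aeruginosa* PA14 the chaperones called at the study's limits went from 0 to 1 with median-of-ratios scaling (*hsp-60*) and ranged from 0 to 1 when each library was left out. In *egl-44* worms these ranged from 0 to 2, and the calls at an adjusted p under 0.05 went from 2 to 4 with median-of-ratios scaling (*hsp-4* at an adjusted p of 0.0360 and *hsp-6* at 0.0230), to 3 with quantile normalization and ranged from 1 to 4 when each library was left out. The labels do not say whether the replicate numbers pair the libraries. The deviations of same-numbered libraries from their group means correlated at -0.191, -0.236 and -0.550 for *P. aeruginosa* PA14 and at 0.0807, 0.0638 and 0.0910 for *egl-44*. Not every library correlated best with its own number. Deviations from a mean of 3 libraries depend on each other, so these values cannot settle whether the libraries were paired. With the replicate block the chaperone calls were 0 on *P. aeruginosa* PA14 and 3 at an adjusted p under 0.05 in *egl-44* worms, and over all genes 3 instead of 135 passed an adjusted p under 0.05 on *P. aeruginosa* PA14. That number was 71 with median-of-ratios scaling, 65 with quantile normalization, 79 with no filter, 327 in 1 fit of all libraries and 9 to 112 when each library was left out. At the study's limits, 1102 genes rose and 281 fell on *P. aeruginosa* PA14, against 1602 and 993 without PA14 replicate 3, 751 and 167 without PA14 replicate 2 and 749 and 165 without OP50 replicate 1.

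Directions turned for *hsp-4* on *P. aeruginosa* PA14 (-0.13 with median-of-ratios scaling, -0.25 to 0.59 when each library was left out), *hsp-16.2* on *P. aeruginosa* PA14 (-0.20 with median-of-ratios scaling, -0.046 with quantile normalization, -0.79 to 0.98) and *hsp-70* in *egl-44* worms (0.019 with quantile normalization, -1.04 to 0.92). When each library was left out they also turned for *hsp-16.41* (-0.95 to 0.79) and *hsp-16.49* (-0.34 to 0.21) on *P. aeruginosa* PA14, and for *hsp-16.2* (-0.30 to 1.05), *hsp-16.41* (-0.50 to 1.16) and *hsp-16.49* (-0.13 to 0.73) in *egl-44* worms. Of all genes called at the study's limits, 79.7% were higher on *P. aeruginosa* PA14, against 43.9% with quantile normalization and 52.0% with median-of-ratios scaling. In *egl-44* worms these shares were 43.4%, 59.2% and 36.9%. The causes were not tested. Of the chaperone identifiers, only *hsp-16.48* and *hsp-16.49* had so few reads, at most 9 a library. The parts of depth and of the counting of shared reads in this were not tested.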

Other observations

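The genes most like *hsp-1*, *hsp-4* and *hsp-6* over the 9 libraries, of the 11045 whose mean reached 5 FPKM, were *cyn-7*, a cyclophilin gene, *lap-1* and *cyp-36A1* for *hsp-1* (Pearson r = 0.919, 0.908 and 0.882), *gcy-12*, *C01B10.3* and *pam-1* for *hsp-4* (0.917, 0.915 and 0.898), and *ptr-24*, *clu-1* and *F56C3.9* for *hsp-6* (0.900, 0.892 and 0.886). No chaperone was among the 3 for these genes. *hsp-12.6*, a small HSP gene that was chosen after its values were seen, had the largest log2 fold change of the listed folding genes on *P. aeruginosa* PA14, 3.30 ± 1.39 (limma, unadjusted p of 0.0510, adjusted p = 0.246). It stood at 1.27, 1.11 and 4.12 FPKM on *E. coli* OP50 and at 6.24, 249 and 7.004 FPKM on *P. aeruginosa* PA14, with the highest value in PA14 replicate 2. Without that library the log2 fold change was 1.59 (unadjusted p of 0.0241, adjusted p = 0.242).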
